A study of Mus musculus with 283 samples.

Results

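KPB25L is a mouse mammary tumour line that the labels class as sensitive to immune checkpoint therapy. Its tumours after 7 days in the study were chosen by their labels for model, time and therapy, which took 8 RNA-seq libraries of 7 mice among the 283 samples of the series. The treated group was 4 mice, with 1 library each, dosed with a pair of blocking antibodies, to PD1 and to CTLA4. The untreated group was 3 mice with 4 libraries, since untreated mouse 2 had a library and a repeat library that were averaged. All 7 mice carried the same line, grown in the mammary gland of syngeneic hosts. They entered an arm once the tumour measured 5 mm across. The dose was 10 mg per kg for the PD1 antibody and 125 ug for the CTLA4 antibody, given into the abdomen in 100 ul. The labels describe no sham antibody for the untreated mice, and KPB25L is a single line, so its tumours stand for that line and not for mammary tumours in general. Mice are numbered within each group below.

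PD1 and CTLA4 are receptors through which T cells are restrained, PD1 by its ligands PDL1 and PDL2 on tumour and myeloid cells, and CTLA4 by competing with CD28 for its ligands. Antibodies that block them can release cytotoxic T cells, which kill with granzymes and perforin and secrete interferon gamma. Interferon gamma in turn switches on antigen presentation and chemokines such as CXCL9 in the cells around. A bulk tumour sample also holds macrophages, fibroblasts, vessels and whatever host tissue was cut with it, including the muscle and fat next to the mammary gland.

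The 8 libraries held an estimated 34.12 to 62.76 M reads and 20756 to 23066 genes above 0. Levels are log2(signal + 1) of the authors' signal, which they scaled to an equal upper quartile, and are written below as log2 signal. The epithelial markers Epcam, Krt8, Krt18 and Cdh1 lay between 13.33 and 16.68 log2 signal in all 7 tumours. The mesenchymal marker Vim lay between 15.08 and 15.63. As T11 markers, the 50 genes were taken that most exceeded KPB25L in T11, by the gap between untreated tumours at 3 days in these same data. In the 7 tumours they averaged 2.17 to 2.74. In tumours of T11 and its derivatives, which include those used for the choice, they averaged 6.97 to 9.32. The milk protein genes Csn2, Wap and Csn1s1 were listed at 0 in all 7 tumours. Per the file headers the treated libraries were all read in lane 3 and the untreated libraries all in lane 5 of 1 flow cell, so lane and arm cannot be told apart. Untreated mouse 2 stood nearer to treated mice than to its own group. The SD of log2 differences across genes was 0.79 between treated mouse 2 and untreated mouse 2, but 1.5 between untreated mice 1 and 2 and 0.65 between the library and the repeat library of untreated mouse 2.

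No gene passed the test between treated and untreated tumours. Of 20848 genes tested with limma, 0 (0%) had a Benjamini-Hochberg adjusted p below 0.05, and the smallest adjusted p was 0.256. It was shared by 5 genes, named here after their values were seen. These were the predicted gene 4932411K12Rik at 3.84 log2, and Asb16 at -6.03, Neu2 at -5.83, Cobl at -4.16 and Rbm20 at -3.94 log2. At an unadjusted p below 0.05 there were 1199 genes (5.75%), of which 568 (2.72%) were higher and 631 (3.03%) lower in treated tumours. The groups did not overlap for 386 genes (1.85%) that were higher in every treated mouse and 440 (2.11%) that were lower in every treated mouse. A positive difference was found for 10651 genes (51.1%). The median difference over all genes was 0.01 log2, and the median standard error was 0.44 log2. In the 1199 genes the extreme values lay mostly in the first mouse of each group. Treated mouse 1 had the highest value of all 7 mice in 380 of the 568 higher genes, and untreated mouse 1 had the lowest in 430 of them. Of the 631 lower genes, 383 were lowest in treated mouse 1 and 521 were highest in untreated mouse 1. Without untreated mouse 1, 339 genes lay below an unadjusted p of 0.05, and without untreated mouse 2 there were 3650. Omitting untreated mouse 2 also gave 44 called genes, 13 higher and 31 lower, and no other omission of a mouse gave any.

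**Figure D1:**
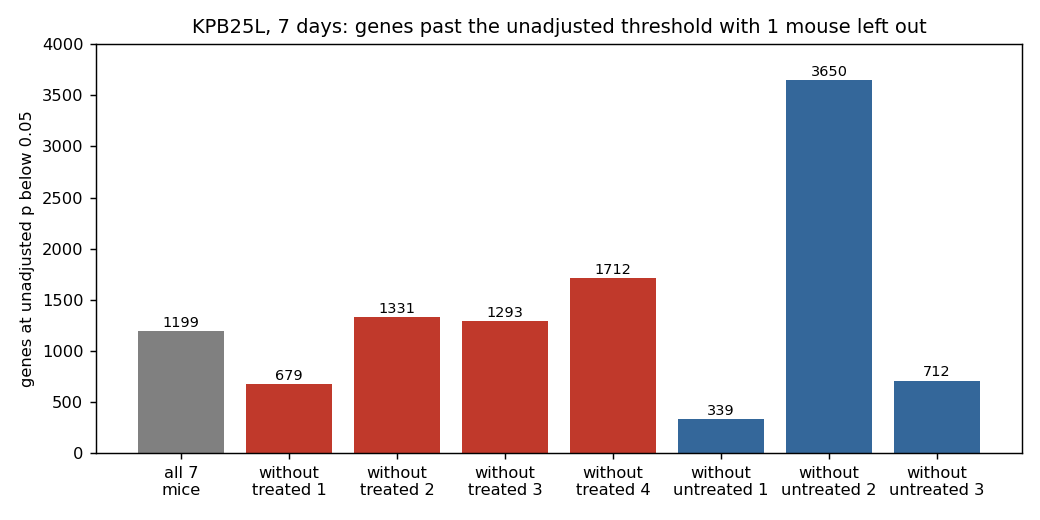
Number of genes (y axis) at an unadjusted limma p below 0.05 in the comparison of treated with untreated KPB25L tumours at 7 days, with all 7 mice and with each mouse left out in turn (x axis; red, a treated mouse left out; blue, an untreated mouse left out). The bar is 1199 with all mice, 339 without untreated mouse 1 and 3650 without untreated mouse 2.

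Of the 43 gene lists, skeletal muscle had the median difference farthest from 0. The list of 10 muscle genes holds contractile proteins (Acta1, Myh4, Myh1, Tnnt3, Tnni2, Actn3, Mylpf), the creatine kinase Ckm, the calcium buffer Pvalb and the calcium pump Atp2a1. All 10 were tested, all 10 were lower in every treated mouse than in any untreated mouse, and 9 had an unadjusted p below 0.05. Over all genes tested, 2.11% were lower in every treated mouse and 3.03% were lower at an unadjusted limma p below 0.05. The 10 genes kept nearly the same order of mice, so they are not 10 separate observations. None was called, and the smallest adjusted p among them was 0.67. The median difference of the 10 was -6.29 log2, against 0.01 log2 for all genes tested.

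The promoters of 3 of these genes are shown as examples that hold a known muscle motif. Each line gives the 250 bases before the gene start, 5′ to 3′ on the gene's strand, from RefSeq on GRCm38.p6, with the E-box CAGCTG in capitals, a site that myogenic factors are known to bind. They lie at chr8:123894776-123895025 on the minus strand (Acta1), chr7:19410844-19411093 on the plus strand (Ckm) and chr11:67237562-67237811 on the plus strand (Myh4).
Acta1: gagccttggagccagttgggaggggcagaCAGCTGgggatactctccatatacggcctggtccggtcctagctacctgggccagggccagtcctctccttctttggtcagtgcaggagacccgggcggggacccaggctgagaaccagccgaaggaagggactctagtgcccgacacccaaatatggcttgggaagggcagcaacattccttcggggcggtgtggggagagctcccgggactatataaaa
Ckm: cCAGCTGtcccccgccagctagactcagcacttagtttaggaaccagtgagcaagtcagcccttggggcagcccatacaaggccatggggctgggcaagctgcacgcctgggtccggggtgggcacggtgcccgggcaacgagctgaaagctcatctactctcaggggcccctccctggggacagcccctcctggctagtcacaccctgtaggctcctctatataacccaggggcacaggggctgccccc
Myh4: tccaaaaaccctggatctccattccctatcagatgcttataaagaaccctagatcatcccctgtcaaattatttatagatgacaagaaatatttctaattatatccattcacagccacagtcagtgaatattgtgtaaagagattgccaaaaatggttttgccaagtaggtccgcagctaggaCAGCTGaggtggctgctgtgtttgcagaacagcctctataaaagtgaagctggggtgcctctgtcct
RefSeq promoters were at hand for 7 of the 10 genes, and CAGCTG, which reads the same on both strands, was present in 5 of them, Mylpf and Atp2a1 included. It was absent from this window in Myh1 and Pvalb. Of 32851 mouse promoters of the same length, 13% held it.

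Acta1, skeletal alpha-actin, stood at 7.10, 12.89, 8.37 and 9.59 log2 signal in treated mice 1 to 4 and at 18.68, 13.52 and 16.59 in untreated mice 1 to 3. Treated mouse 2 and untreated mouse 2 were close to each other, and the other mice were far apart. The difference was -6.77 ± 3.21 log2 (SE; limma adjusted p = 0.84). Ckm had 6.63, 11.67, 7.80 and 8.53 log2 signal in treated mice and 17.12, 12.66 and 15.13 in untreated mice, a difference of -6.32 ± 3.07 log2. Myh4, a fast myosin heavy chain, had 4.14, 10.95, 7.75 and 8.02 in treated mice and 17.56, 11.52 and 15.38 in untreated mice. Its difference was -7.11 ± 3.58 log2, with a 95% interval of -14.18 to -0.03. Myh1, another myosin heavy chain, had 2.77, 8.93, 2.40 and 6.27 in treated mice and 15.02, 9.22 and 13.08 in untreated mice. In each of these 4 genes the untreated mice kept their order, with untreated mouse 1 highest, untreated mouse 3 next and untreated mouse 2 just above treated mouse 2.

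The 10 genes together took 0.00112, 0.0454, 0.00321 and 0.00587% of the signal in treated mice 1 to 4. They took 2.45% in untreated mouse 1, 0.0730 and 0.0712% in the library and repeat library of untreated mouse 2, and 0.614% in untreated mouse 3. As a mean over the list, the treated mice stood at 5.51, 10.84, 6.92 and 7.99 log2 signal and the untreated mice at 16.46, 11.47 and 14.51. Across all mice fitted this mean ran between 2.45 and 19.16 with a median of 6.29, and 53 mice were above 10. The untreated mice ranked 5, 40 and 19 from the top, so tumours of other groups had as much muscle signal. In the cultured KPB25L line, which has no muscle around it and comes from a table normalized separately, Ckm was at 1.62, Acta1 at 2.09 and Myh4 at 0 log2 signal. Among the 10 genes with the smallest unadjusted p on the lower side, counted over annotated genes above the median level, 6 are known from muscle and stand outside the list. Ankrd23, a stress protein of the sarcomere, was at 7.31, 9.71, 7.22 and 7.86 log2 signal in treated mice and 15.60, 9.83 and 13.10 in untreated mice. Its difference of -4.82 ± 1.25 log2 had an adjusted p of 0.378. Srl, a calcium-binding protein of the sarcoplasmic reticulum, differed by -3.64 ± 1.04 log2 and Tnnt1, slow troponin T, by -4.21 ± 1.32 log2. The small heat shock protein Cryab, abundant in muscle, differed by -2.52 ± 0.81 log2, filamin C (Flnc) by -2.77 ± 0.92 log2 and beta-tropomyosin (Tpm2) by -2.05 ± 0.69 log2. Each of these 6 genes was lower in all 4 treated mice than in any untreated mouse, against 2.11% of all genes tested. They were picked for a small p in this same comparison, so their lack of overlap is no separate evidence. None was called, and no list fixed them as a group.

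**Figure D2:**
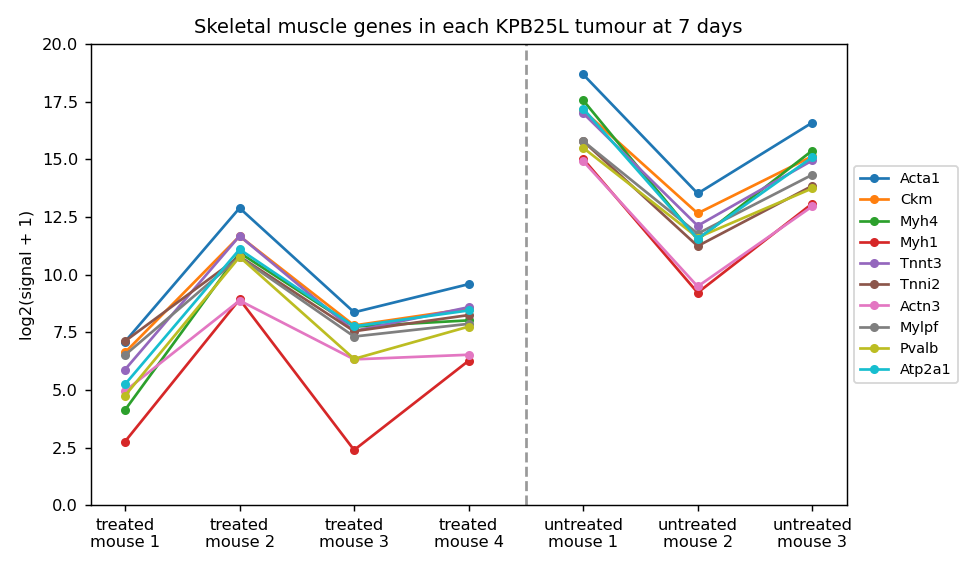
Log2(signal + 1) (y axis) of the 10 skeletal muscle genes in the 4 treated mice (left of the dashed line) and the 3 untreated mice (right), 1 colour per gene. The genes keep nearly the same order of mice, and Acta1 is at 7.10 in treated mouse 1 and 18.68 in untreated mouse 1, but at 12.89 and 13.52 in the treated and untreated mice numbered 2.

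T cell genes had higher group means in treated tumours. The groups overlapped for the list mean and for 18 of the 19 genes tested. Of the 20 genes of the T cell receptor complex and its signalling, 19 were tested, all 19 had a positive difference, and 10 had an unadjusted p below 0.05, while 0 were called. Over all genes tested, the background for this list and those below, 51.1% had a positive difference. In that background 2.72% were higher at an unadjusted limma p below 0.05. The median difference of the T cell list was 1.42 log2. By mouse the list averaged 9.11, 6.77, 7.06 and 7.56 log2 signal in treated mice and 4.82, 7.69 and 6.19 in untreated mice. Untreated mouse 2 therefore lay above treated mice 2, 3 and 4. In a bulk sample, more T cells and more RNA per T cell cannot be told apart. Cd3e, a chain of the receptor complex, was at 9.90, 7.12, 7.41 and 7.59 in treated mice and 4.04, 7.94 and 5.77 in untreated mice, a difference of 2.09 ± 0.92 log2. Lat, the adaptor that carries the receptor signal, differed by 1.79 ± 0.70 log2.

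Cytotoxic genes were also highest in treated mouse 1 and lowest in untreated mouse 1 as a list mean. All 17 members of the CD8 and cytotoxicity list had a positive difference, 8 had an unadjusted p below 0.05 and 0 were called, with a median of 1.78 log2. The list averaged 8.89, 6.54, 6.52 and 7.19 log2 signal in treated mice and 3.27, 6.94 and 6.18 in untreated mice. Cd8a, the co-receptor chain of killer T cells, was at 9.93, 6.53, 6.89 and 6.72 in treated mice and 3.13, 6.65 and 5.64 in untreated mice. Treated mouse 1 was thus more than 3 log2 units above the other treated mice, and untreated mouse 2 lay among them. The difference was 2.38 ± 1.06 log2, with a 95% interval of 0.28 to 4.48 (adjusted p = 0.796). Ifng, interferon gamma itself, was at 7.46, 2.85, 4.4 and 4.95 in treated mice and 0, 4.04 and 1.54 in untreated mice, a difference of 3.05 ± 1.19 log2 (adjusted p = 0.672). Gzmf, a granzyme of strongly activated killer cells with close paralogs, was at 14.37, 11.38, 8.32 and 7.08 in treated mice and 1.44, 7.92 and 9.31 in untreated mice. Its treated values spread over 7 log2 units and overlapped the untreated ones. Gzmb, the best known granzyme, differed by 1.78 ± 1.14 log2, the pore former Prf1 by 2.29 ± 1.14 log2 and the granule protein Nkg7 by 2.43 ± 1.00 log2.

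The genes of the antibody targets and their ligands were also higher on average. All 6 members of that list had a positive difference, with a median of 1.41 log2, and 2 had an unadjusted p below 0.05. Pdcd1, which encodes PD1, was at 10.25, 6.84, 7.03 and 6.76 in treated mice and 4.04, 6.88 and 6.13 in untreated mice. Here too the other 3 treated mice stood level with untreated mouse 2. The difference was 2.04 ± 0.78 log2 (95% interval 0.50 to 3.57, adjusted p = 0.66). Ctla4 differed by 1.68 ± 0.81 log2. Cd274, the gene of PDL1, differed by 1.15 ± 0.72 log2, and Pdcd1lg2, the gene of PDL2, by 2.19 ± 1.18 log2. Among 8 other inhibitory receptors all differences were positive, with a median of 0.47 log2 and Lag3 at 1.05 ± 0.51 log2. Regulatory T cells, which carry much CTLA4, are marked by Foxp3. It was at 9.43, 7.28, 7.95 and 8.02 in treated mice and 5.42, 8.20 and 6.52 in untreated mice, a difference of 1.46 ± 0.52 log2 (adjusted p = 0.60). All 10 genes of its list had a positive difference, and 3 had an unadjusted p below 0.05. Of 12 tested helper genes 11 were positive, among them the costimulatory receptor Tnfrsf4 (OX40) at 1.51 ± 0.54 log2 and Tbx21, the type 1 helper regulator, at 2.09 ± 0.81 log2. Cd4 was at 0.70 ± 0.56 log2.

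Genes of the response to interferon gamma were also higher on average, and the groups overlapped for the list mean. Of 22 members 21 had a positive difference, 5 had an unadjusted p below 0.05 and 0 were called, with a median of 1.26 log2. The list averaged 12.23, 10.04, 10.32 and 11.29 log2 signal in treated mice and 8.40, 10.69 and 9.87 in untreated mice. Ubd, a ubiquitin-like protein induced by interferon gamma, was at 11.24, 4.75, 5.63 and 7.06 in treated mice and 0.90, 6.81 and 0 in untreated mice. Its difference of 4.60 ± 1.43 log2 was the list's largest (adjusted p = 0.528). The guanylate-binding protein Gbp2 differed by 1.44 ± 0.69 log2. In MHC class I presentation 14 of 15 differences were positive, with a median of 0.88 log2. H2-K1, a class I heavy chain, was at 17.49, 15.97, 15.70 and 16.26 in treated mice and 14.16, 16.34 and 15.21 in untreated mice, a difference of 1.12 ± 0.49 log2. Psmb9, an immunoproteasome subunit, differed by 1.39 ± 0.69 log2 and Nlrc5, the class I transactivator, by 1.43 ± 0.71 log2. All 14 genes for T cell attracting chemokines and their receptors were positive, with a median of 1.47 log2. Cxcl9, a ligand of CXCR3, was at 14.57, 10.56, 10.63 and 12.39 in treated mice and 6.88, 11.67 and 10.52 in untreated mice. Of the chemokines for monocytes, Ccl2 was at 13.31, 11.42, 13.30 and 12.69 in treated mice and 8.92, 11.97 and 10.31 in untreated mice, a difference of 2.28 ± 0.81 log2. Its neighbour Ccl7 differed by 2.01 ± 0.82 log2. The 17 type I interferon genes were all positive with a median of 0.77 log2, and 0 had an unadjusted p below 0.05.

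Treated mouse 1 was the highest of the 7 in 17 of 26 immune lists and treated mouse 4 in 8, and untreated mouse 1 was the lowest in 22. Untreated mouse 1 was also the mouse with the most muscle signal and treated mouse 1 the one with the least. With muscle list level as a covariate, the median difference was 1.23 log2 for the T cell list, 1.66 for the CD8 list and 1.04 for the interferon gamma list. Muscle level did not overlap between the arms, so this fit cannot tell muscle from arm in these mice. With all mice these medians were 1.42, 1.78 and 1.26 log2, and without untreated mouse 2 they were 2.10, 2.42 and 1.79 log2. Without treated mouse 1 and untreated mouse 1 they were 0.14, 0.06 and 0.24 log2. Those 2 mice were chosen after their extreme values were seen, so smaller medians follow from the choice. In the same omission Cd8a was at 0.57, Pdcd1 at 0.37, Foxp3 at 0.39, Cxcl9 at 0.10 and Ifng at 1.27 log2. Tbx21 stood at -0.03 log2 there.

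**Figure D3:**
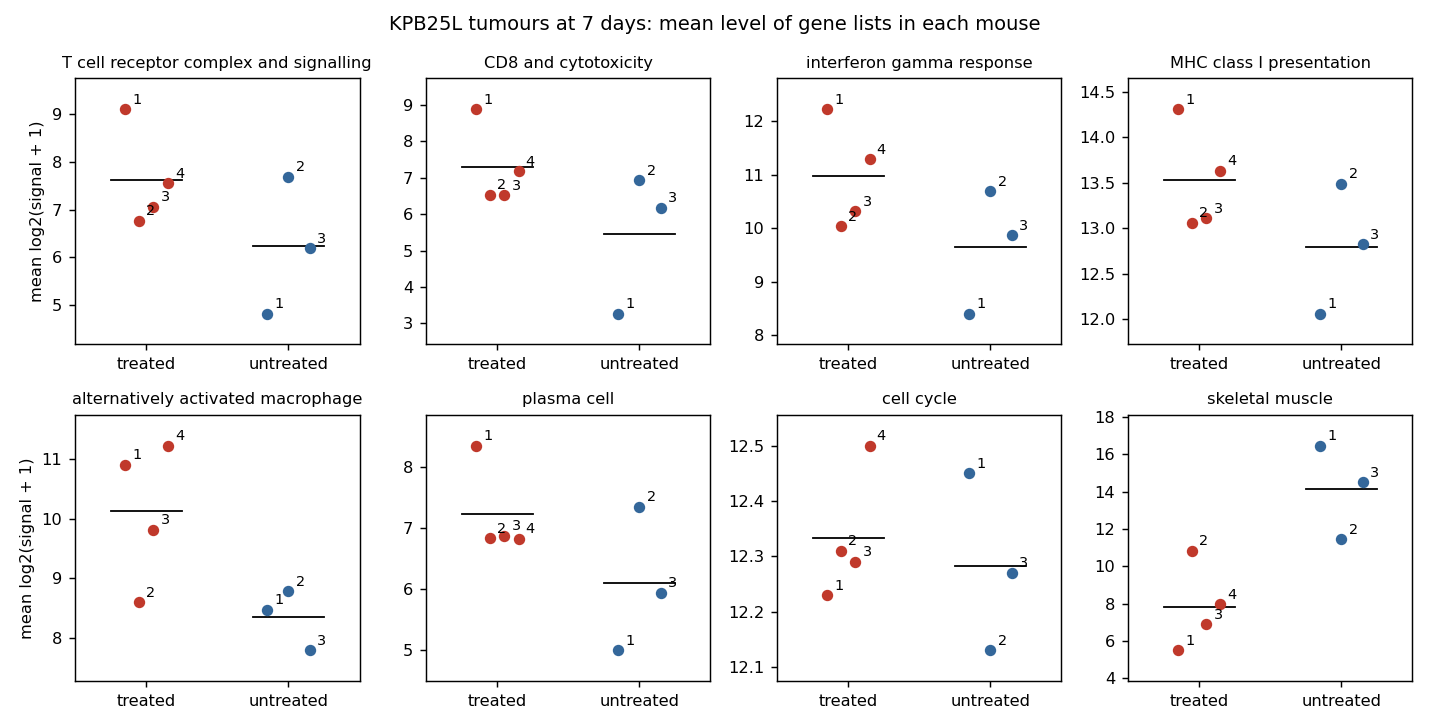
Mean log2(signal + 1) of 8 gene lists (y axis, a scale of its own in each panel) in each of the 4 treated mice (red) and 3 untreated mice (blue), numbered within the group; black bars are group means. The T cell list runs between 6.77 and 9.11 in treated mice and between 4.82 and 7.69 in untreated mice, and the skeletal muscle list is the panel whose groups are apart, with 10.84 as the highest treated and 11.47 as the lowest untreated mean.

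Of the 11 genes of alternatively activated macrophages, Chil3 and Retnla were higher in every treated mouse than in any untreated mouse, against 1.85% of all genes tested. Such macrophages arise under interleukin 4 and 13, which signal through STAT6. Chil3, a chitinase-like secreted protein, was at 13.32, 7.47, 10.77 and 11.68 log2 signal in treated mice and 3.13, 6.11 and 6.0 in untreated mice. Every treated mouse was above every untreated mouse. The difference was 5.73 ± 1.65 log2 with a 95% interval of 2.47 to 8.98 (adjusted p = 0.491). Retnla, a secreted protein of the resistin family, was at 14.44, 10.59, 10.04 and 15.02 in treated mice and 8.28, 7.33 and 7.14 in untreated mice, again with no overlap. Its difference was 4.94 ± 1.97 log2 (95% interval 1.04 to 8.83, adjusted p = 0.702). Ccl24, a chemokine for eosinophils, was at 9.82, 5.10, 9.50 and 10.43 in treated mice and 4.44, 6.86 and 3.11 in untreated mice, a difference of 3.91 ± 1.22 log2. The arginase gene Arg1 was at 13.36, 11.70, 10.60 and 13.77 in treated mice and 11.14, 10.00 and 10.79 in untreated mice, a difference of 1.71 ± 1.07 log2. Without treated mouse 1 and untreated mouse 1, Chil3 was at 3.91, Retnla at 4.65, Ccl24 at 3.36 and Arg1 at 1.63 log2. The other members had smaller differences. The list's median was 0.77 log2, 9 of 11 differences were positive, 3 had an unadjusted p below 0.05 and 0 were called. In the cultured line, in its separately normalized table, Chil3 and Retnla were at 0.

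The promoters of Retnla and Chil3 are shown because both genes are known targets of STAT6 in mouse macrophages. The motif searched was TTC and GAA with any 4 bases between them, the spacing known for STAT6, or any 3 bases, the shorter spacing known for other STAT factors. The 4-base form is in capitals in Retnla and the 3-base form in Chil3. The 4-base form, with the STAT6 spacing, was absent from this window in Chil3. The lines give the 250 bases before the gene start, 5′ to 3′, from RefSeq on GRCm38.p6, at chr16:48842359-48842608 on the plus strand (Retnla) and chr3:106167565-106167814 on the minus strand (Chil3).
Retnla: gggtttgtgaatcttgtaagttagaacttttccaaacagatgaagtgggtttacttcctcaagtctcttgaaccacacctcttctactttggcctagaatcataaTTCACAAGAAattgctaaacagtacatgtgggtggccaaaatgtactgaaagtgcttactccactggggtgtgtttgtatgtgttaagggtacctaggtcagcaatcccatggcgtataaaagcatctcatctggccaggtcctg
Chil3: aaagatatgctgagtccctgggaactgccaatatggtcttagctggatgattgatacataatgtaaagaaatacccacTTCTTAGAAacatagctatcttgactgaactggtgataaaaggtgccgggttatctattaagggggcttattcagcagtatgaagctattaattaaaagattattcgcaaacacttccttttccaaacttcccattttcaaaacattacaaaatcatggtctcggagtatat
The match begins 145 bases before the start in Retnla and 172 bases before it in Chil3. Both forms read the same on either strand. Promoters were at hand for 8 of the 11 genes, and 2 held each form, Ccl17 holding both. Of all 32851 promoters, 5.85% held the 4-base form and 7.02% the 3-base form.

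Other myeloid genes differed less. All 12 tested macrophage genes had a positive difference, with a median of 0.51 log2, a range of 0.14 to 0.77 and 0 at an unadjusted p below 0.05. Of 12 neutrophil genes 9 were positive, with a median of 0.26 log2 and 1 at an unadjusted limma p below 0.05. That gene, with the list's largest difference, was Retnlg, a resistin-like gene of neutrophils. Retnlg was at 6.41, 4.20, 7.41 and 7.37 in treated mice and 1.84, 5.08 and 3.75 in untreated mice. Its difference was 2.79 ± 1.11 log2. Nos2, the nitric oxide synthase of inflammatory macrophages, differed by 1.49 ± 0.87 log2. Of 12 complement genes 10 were positive, with a median of 0.45 log2 and 1 at an unadjusted limma p below 0.05. That gene, C4b, had the list's largest difference at 1.53 ± 0.69 log2 and was highest in treated mouse 4 at 14.44. Mast cell and eosinophil genes averaged 4.80, 4.23, 4.95 and 6.93 in treated mice and 4.99, 4.82 and 4.94 in untreated mice, so the only high mean was that of treated mouse 4.

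Of the B cell markers, Ms4a1, which encodes CD20, did not exceed 4.44 log2 signal in any of the 7 tumours. Cd79a, a signalling chain of the B cell receptor, was at 5.76, 6.35, 7.44 and 8.26 in treated mice and 2.15, 7.07 and 8.21 in untreated mice. The other chain, Cd79b, was at 6.47 to 7.27 in treated mice and 4.12 to 7.41 in untreated mice. The B cell list had 11 of 15 positive differences with a median of 0.83 log2, the T follicular helper list 10 of 11 with 1.17, and the NK cell list 7 of 9 with 0.66. In MHC class II presentation 10 of 11 differences were positive, with a median of 0.41 log2, and in the lists of cross-presenting and of other dendritic cells 8 of 9 and 8 of 11, with medians of 0.32 and 0.36 log2. Plasma cell genes averaged 8.34, 6.83, 6.87 and 6.82 in treated mice and 4.99, 7.34 and 5.93 in untreated mice, with 14 of 16 positive and 1 at an unadjusted p below 0.05. That gene was Ighg2b, an immunoglobulin heavy chain, at 3.29 ± 1.55 log2. Jchain, the joining chain of secreted antibody, was at 1.61 ± 1.23 log2. In the lymphoid tissue list the lymph node chemokine Ccl21a, which has near-identical copies, ran the other way. It was at 0, 0, 3.22 and 0.87 in treated mice and 8.29, 1.84 and 9.80 in untreated mice, a difference of -5.62 ± 2.17 log2 (adjusted p = 0.665). Untreated mice 1 and 3, where it was high, were also the mice with the most muscle signal. Cr2, a marker of follicular stroma and B cells, was at most 1.58 log2 signal in any of the 7 mice.

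Lists of cell cycle, epithelial, mesenchymal, hypoxia and mitochondrial genes had medians near 0. In bulk tissue these lists do not read tumour cells alone. The 20 cell cycle genes averaged 12.23, 12.31, 12.29 and 12.50 log2 signal in treated mice and 12.45, 12.13 and 12.27 in untreated mice. Their median difference was 0.04 log2, the range was -0.29 to 0.56, and 0 had an unadjusted p below 0.05. For Mki67, the usual marker of cycling cells, the 95% interval of the difference was -0.95 to 0.47 log2. Luminal and epithelial genes had a median of -0.10 log2, mesenchymal genes 0.03, hypoxia and glycolysis genes 0.04 and mitochondrial respiration genes -0.08. Of 14 basal genes, only the keratin Krt5 had an unadjusted p below 0.05. It was at 7.45, 6.28, 7.93 and 6.87 in treated mice and 0, 0 and 5.89 in untreated mice, and it was at 0 in the separately normalized cultured line. Its difference was 5.17 ± 1.80 log2 (adjusted p = 0.60), while its partner keratin Krt14 was at 10.60, 9.55, 11.69 and 10.01 in treated mice and 7.49, 11.63 and 10.85 in untreated mice. Krt14 was also at 0 in the cultured line. Collagen and fibroblast genes had a median of -0.70 log2 with 11 of 15 negative, and the matrix protein Sparc was at -0.78 ± 0.39 log2. Adipocyte genes averaged 4.04, 3.95, 4.4 and 9.20 in treated mice and 7.58, 3.58 and 6.80 in untreated mice, so fat signal was high in treated mouse 4 and in untreated mice 1 and 3. Erythroid genes had a median of 1.21 log2, with 7 of 8 positive and 0 at an unadjusted limma p below 0.05. They averaged 8.94, 9.49, 8.15 and 10.01 in treated mice and 8.23, 8.47 and 7.73 in untreated mice, so the groups overlapped. In T11 at 7 days the erythroid median was 1.28 log2. Of 12 genes of heat shock and the unfolded protein response 4 differences were positive and 8 negative, with a median of -0.19 log2. The 2 with an unadjusted p below 0.05 were Hspa1a, an inducible heat shock protein with a near-identical copy, at -1.82 ± 0.70 log2 and Atf4, a stress transcription factor, at 0.55 ± 0.24 log2. Of 12 p53 targets 7 differences were positive and 5 negative, with a median of 0.09 log2. The 2 with an unadjusted p below 0.05 were lower, Ccng1 being at -0.91 ± 0.39 log2 and Eda2r at -1.58 ± 0.70 log2. Hspa1a, Ccng1 and Eda2r were highest in untreated mouse 1, as were 521 of the 631 genes lower at an unadjusted limma p below 0.05.

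On the higher side, the 10 genes with the smallest unadjusted p among annotated genes above the median level were of mixed function, with differences of 0.36 to 1.19 log2. Sp140, a chromatin reader of immune cells, was at 10.33, 9.99, 9.77 and 10.87 in treated mice and 8.14, 9.62 and 9.38 in untreated mice, a difference of 1.19 ± 0.41 log2. Traf5, an adaptor of TNF receptors, differed by 0.97 ± 0.31 log2 and Bcl2, which blocks apoptosis, by 0.81 ± 0.27 log2. Irf2bp2, a transcriptional co-repressor, was at 13.04, 13.35, 13.10 and 13.05 in treated mice and 12.03, 12.99 and 12.49 in untreated mice. Ifrd1, a transcriptional co-regulator, differed by 0.62 ± 0.20 log2, Arfip1 by 0.50 ± 0.16 log2 and Arl14ep by 0.59 ± 0.20 log2. The lysosomal enzyme Galc differed by 0.63 ± 0.21 log2, the co-chaperone Dnajb6 by 0.36 ± 0.12 log2 and the proton pump subunit Atp6v1g1 by 0.73 ± 0.25 log2. Adjusted p lay between 0.537 and 0.60 for all 10. On the lower side the other 4 of 10 were Ndrg2, which is abundant in brain and muscle, at -3.31 ± 1.05 log2, Ndst2, a heparan sulfate enzyme, at -0.60 ± 0.17 log2, Ecd at -0.50 ± 0.16 log2 and Ccdc117 at -0.72 ± 0.24 log2. In each of these 4 untreated mouse 1 was highest, as in 521 of the 631 genes lower at an unadjusted limma p below 0.05.

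**Figure D4:**
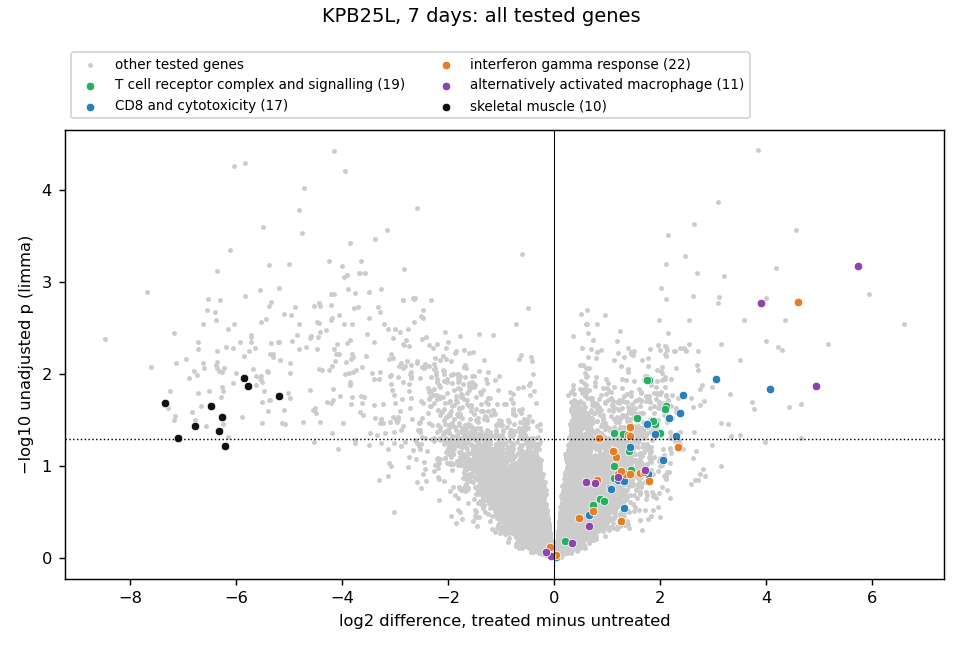
Log2 difference between treated and untreated KPB25L tumours at 7 days (x axis) against -log10 of the unadjusted limma p (y axis) for the 20848 tested genes, with 5 gene lists in colour; the dotted line marks an unadjusted p of 0.05. T cell, CD8 and interferon gamma genes lie mostly right of 0, Chil3 is at 5.73, and the 10 skeletal muscle genes lie between -7.35 and -5.20.

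The 7-day difference was then set against that in other groups. The same comparison in KPB25L tumours at 3 days, with 5 treated and 5 untreated mice, called 2997 genes (14.4%), 1814 higher (8.7%) and 1183 lower (5.67%). The direct test of the 7-day difference minus the 3-day difference called 1 gene (0.0048%), with 1880 at an unadjusted p below 0.05. That gene, 4932411K12Rik, is a predicted gene named here after its values were seen. At 7 days it was at 3.51 to 5.29 log2 signal in treated mice and at 0, 0 and 1.54 in untreated mice, and at 3 days at 0 to 6.73 in treated mice and 1.89 to 7.22 in untreated mice. The difference between the effects was 6.0 log2, and the call was lost with a pseudocount of either 10 or 0.1, on the upper 50% of genes, with 2 other sources of the spread, and without untreated mouse 1 or treated mouse 4. T cell genes had a median difference of 1.42 log2 with 0 called at 7 days, and of 1.88 log2 with 13 of 19 called higher at 3 days. In the direct test 0 of them were called. For the interferon gamma list the medians were 1.26 log2 at 7 days and 1.95 at 3 days, where 17 of 22 were called higher. Neutrophil genes had 0.26 log2 at 7 days and 2.44 at 3 days, and mast cell and eosinophil genes 0.28 log2 at 7 days and 2.62 at 3 days. No member of either list was called in the direct test. Chil3 differed by 5.73 log2 at 7 days and 3.58 log2 at 3 days (adjusted p = 0.0591 at 3 days), and Retnla by 4.94 log2 at 7 days and 4.92 log2 at 3 days (adjusted p = 0.0291 at 3 days). Of the annotated genes above the median level with the smallest p in that test, Xbp1, a regulator of secretory capacity, was at 13.09, 13.09, 13.22 and 12.70 in treated mice and 13.18, 13.15 and 13.24 in untreated mice at 7 days. Its difference was -0.17 ± 0.18 log2 at 7 days and 0.82 log2 at 3 days, -0.99 log2 between the times. Serpinb1a, a protease inhibitor, stood at -3.03 log2 between the times, the heat shock protein Hspb1 at -3.79, Pkdcc at -2.23 and Pdzrn3 at -2.39. On the other side were the adhesion gene Cadm1 at 1.86 log2, the chromatin remodeller Hells at 1.31, Gtpbp10 at 1.06, Agap1 at 0.90 and Ddx52 at 0.69. None of these 10 was called, and their adjusted p lay between 0.238 and 0.306. Per the file headers the untreated 3-day libraries carry the name Pretreatment, and each 3-day group spans 3 flow cells.

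KPB25L-UV is a derivative of KPB25L that the labels also class as sensitive, with 6 treated and 4 untreated mice at 7 days. Its own 7-day comparison called 4048 genes (19.4%), 1667 higher (8%) and 2381 lower (11.4%). The KPB25L difference minus the KPB25L-UV difference called 181 genes (0.868%), 48 higher (0.23%) and 133 lower (0.638%), with 2768 at an unadjusted p below 0.05. After each sample was centred on its median gene the split was 190 higher and 171 lower. With the spread of the groups compared alone the test called 0 genes. The calls, standard errors and adjusted p given here therefore rest on the spread pooled over all 47 groups. Of the 5 named genes on the higher side, the chromatin protein Hmga2 differed most between the lines, by 3.54 ± 0.96 log2 (adjusted p = 0.0432). In KPB25L it was at 13.47, 12.96, 12.25 and 12.54 in treated mice and 13.48, 11.68 and 12.86 in untreated mice, while in KPB25L-UV it was at 3.90 to 13.15 in treated mice and 12.40 to 14.73 in untreated mice. The difference was 0.13 ± 0.74 log2 in KPB25L, and Hmga2 fell by 3.41 log2 in KPB25L-UV, where its SD among treated mice was 3.62 log2. The AP-1 subunit Fosl1 (3.05 log2), the kinase Prkg2 (2.97), the nuclear receptor Nr2f1 (2.63) and the glycosyltransferase Gcnt4 (2.22) had the same form, with 0.12 to 0.54 log2 in KPB25L and they fell by 2.09 to 2.67 log2 in KPB25L-UV. Chil3 differed by 5.73 log2 in KPB25L and rose by 5.37 log2 in KPB25L-UV (adjusted p = 0.00364), and Retnla differed by 4.94 log2 in KPB25L and rose by 5.01 log2 in KPB25L-UV (adjusted p = 0.0236). Cell cycle genes had a median of 0.04 log2 in KPB25L and -0.97 log2 in KPB25L-UV, where 18 of 20 fell, and 2 of the 20 were called in the direct test. Of the 5 named genes on the lower side, Pdk4, which shifts muscle from glucose to fat, differed most. It was at 6.64, 7.68, 6.77 and 7.88 in treated KPB25L mice and 13.94, 8.02 and 11.15 in untreated KPB25L mice. In KPB25L-UV it was at 5.98 to 16.37 in treated mice and 7.00 to 9.81 in untreated mice, and the difference between the lines was -7.36 ± 1.80 log2 (adjusted p = 0.0241). Ankrd23 stood at -6.01 log2, Srl at -5.60, Ndrg2 at -5.58 and the mitochondrial protein Chchd10 at -4.61. The muscle list itself had 0 of 10 called in this test, and its mean was 4.07 to 19.16 in treated and 7.20 to 12.10 in untreated KPB25L-UV mice. With muscle list level as a covariate the test called 0 genes. In KPB25L that level was at most 10.84 in treated mice and at least 11.47 in untreated mice. Muscle level and arm therefore cannot be told apart there, and whether muscle accounts for the calls was not tested. Over 21 settings, that covariate included, the difference between the lines ran from 3.04 to 4.26 log2 for Hmga2, from 2.89 to 3.56 for Fosl1, from 2.60 to 3.70 for Prkg2, from 2.22 to 3.02 for Nr2f1 and from 1.93 to 2.61 for Gcnt4. It ran from -8.98 to -4.49 log2 for Pdk4, whose value nearest 0 was the one with the covariate. The test also called 0 without untreated mouse 1 of KPB25L, 27 without untreated mouse 3 and 66 without treated mouse 3. It called 107 without treated mouse 1 and 430 without untreated mouse 2. In 6 KPB25L-UV libraries T11 markers averaged above 4.5 log2 signal, 2 treated and 2 untreated ones at 7 days among them. Across the KPB25L-UV tumours KPB25L markers, chosen in the same way with the gap reversed, averaged 2.19 to 10.66. In tumours of T11 and its derivatives they averaged 1.05 to 2.96, so some libraries labelled KPB25L-UV had the marker levels of T11. The counts of 4048 and 181 include them under their label. Without these 6 the count was 1050, of which 567 were higher.

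T11, another mammary tumour line, is classed as resistant and had 4 treated and 4 untreated mice at 7 days. Its own comparison called 0 genes (0%), as in KPB25L. The direct test of the KPB25L difference minus the T11 difference called 0 genes (0%) with limma, and 472 had an unadjusted p below 0.05. The T cell list had a median difference of 1.42 log2 in KPB25L and 0.46 log2 in T11, the CD8 list 1.78 log2 in KPB25L and 0.07 in T11, and the interferon gamma list 1.26 in KPB25L and 0.06 in T11. The T cell list averaged 4.74 to 5.79 log2 signal in treated T11 mice and 4.41 to 5.16 in untreated T11 mice, below every treated KPB25L mouse. Cd8a differed by 2.38 ± 1.06 log2 in KPB25L and 0.47 log2 in T11. Chil3 differed by 5.73 ± 1.65 log2 in KPB25L and 1.55 log2 in T11, a difference between the lines of 4.18 log2 with an adjusted p of 1. Retnla differed by 4.94 ± 1.97 log2 in KPB25L and 3.78 log2 in T11, a difference between the lines of 1.15 log2. Of the 2 genes named by smallest p, Arl14ep stood at 0.79 and Tuba4a, a tubulin, at -1.58 log2 between the lines.

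**Figure D5:**
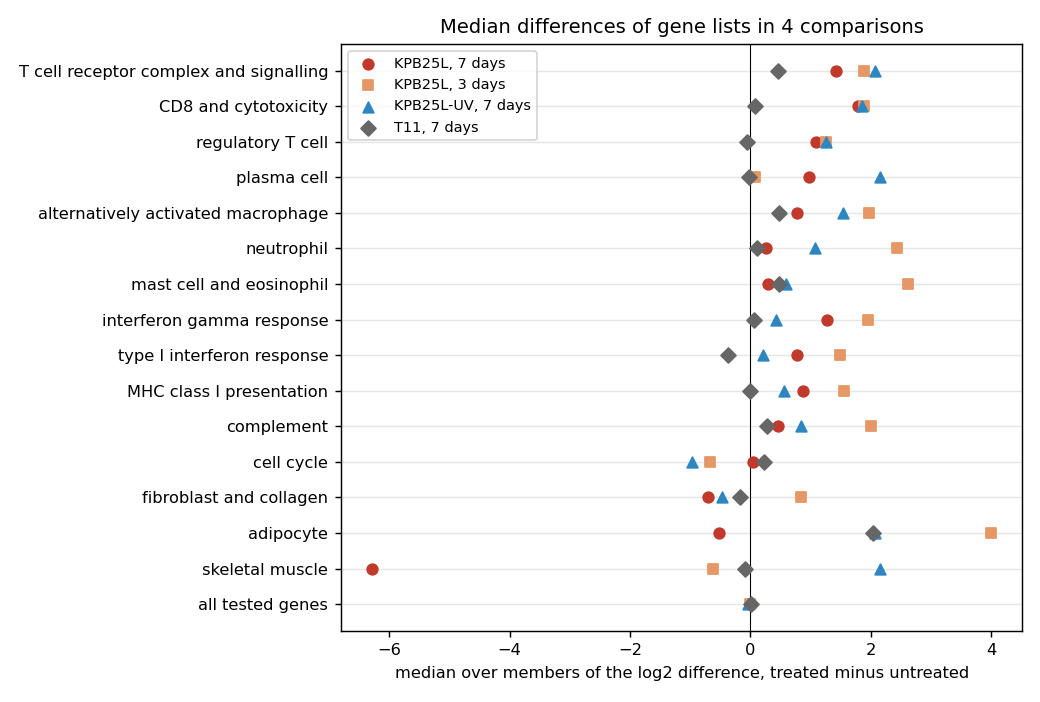
Median over list members of the log2 difference between treated and untreated tumours (x axis) for 15 gene lists and all tested genes (rows) in KPB25L at 7 days (red circles), KPB25L at 3 days (orange squares), KPB25L-UV at 7 days (blue triangles) and T11 at 7 days (grey diamonds). The skeletal muscle median of KPB25L at 7 days lies at -6.29, against -0.62, 2.16 and -0.08 in the other 3 comparisons, and the T cell list lies at 1.42, against 1.88, 2.06 and 0.46.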

How the data were processed

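Tumour RNA was sequenced as TruSeq mRNA libraries in paired 2x50 reads, and the submitters' processing notes name STAR, SAMtools, Picard, Salmon and the build mm10. The signal values are the authors' gene estimates, which they scaled to an equal upper quartile in each library, per the file headers. Whole read counts could not be recovered from them, so log2(signal + 1) was tested with limma 3.58.1 in R 4.3.3, with moderated variances that follow the mean. From 45724 entries, 39 date-like names and 28 entries of repeated symbols were dropped. The fit took the tumour libraries of 47 groups and the upper 66.7% of genes by mean among those above 0 in at least 4 samples, and a gene was called at a Benjamini-Hochberg adjusted p below 0.05. Interactions were contrasts of the same fit. The library and repeat library of untreated mouse 2 were averaged on the linear scale. Nothing in the labels says which mice shared a cage or day, so p-values measure the spread between mice. That spread was pooled over all 47 groups, with 145 residual degrees of freedom. The p-values, standard errors and intervals therefore do not rest on the KPB25L mice compared alone. With the spread of the groups compared alone, 878 genes had an unadjusted p below 0.05 in the 7-day comparison, against 1199 with the pooled spread. Reads per library, given in the report, were estimated from the files and cover counting precision only. Another 71 library columns of the tumour table and 5 of the cell line table were not used here, nor were other data types.

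The 43 gene lists, the genes named and the tests were chosen with earlier results of these data known. Genes were named as the 10 per direction (5 for interactions) with the largest difference among those called, or else the smallest unadjusted p, among annotated genes above the median level, plus up to 4 members per list with the largest test statistic and a fixed panel. Alternatives covered pseudocounts, filters, centring, the source of the spread, flow cell, each mouse left out and, chosen after seeing the data, muscle level as a covariate and both mice numbered 1 left out. The limma step was tested on simulated data.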

Additional observations from a re-analysis of the deposited data

Results flagged for a closer look

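In the treated group of 4 mice, 116 genes and list means were checked for a mouse far from the other 3, and 9 (7.76%) passed the limit that chance passes in about 5% of groups. The value given for each is the gap to the nearest mouse divided by the group's range. Treated mouse 1 was far above the others for Pdcd1 (0.923), Lag3 (0.918), Cd8a (0.894), Cd3e (0.831) and the plasma cell list (0.967). Treated mouse 2 was far below for the monocyte chemokine Ccl7 (0.849) and the list of engineered alleles and driver genes (0.844), and far above for the mitochondrial respiration list (0.935). Treated mouse 4 was far above for the adipocyte list (0.914).

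The 7-day effect in KPB25L differed from another group's effect, by the direct limma test, for 1 gene against 3 days and for 181 genes against KPB25L-UV. These calls used the spread pooled over 47 groups, and with the spread of the groups compared alone both tests called 0. The gene against 3 days was 4932411K12Rik, at 6.0 log2. Those against KPB25L-UV that the naming rule picked were Hmga2 at 3.54, Fosl1 at 3.05, Prkg2 at 2.97, Nr2f1 at 2.63 and Gcnt4 at 2.22 log2 on the higher side. On the lower side they were Pdk4 at -7.36, Ankrd23 at -6.01, Srl at -5.60, Ndrg2 at -5.58 and Chchd10 at -4.61 log2. In KPB25L each of these 5 lower genes was highest in untreated mouse 1. So were 521 of the 631 genes that were lower at an unadjusted limma p below 0.05 in the 7-day comparison. That mouse also had the most skeletal muscle signal, and a link to these genes was not tested.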

How the results depend on the processing

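No paired analysis was possible because the treated and untreated mice carry different mouse numbers, and the replicate numbers used here only follow the order of the samples. The 7-day comparison called 0 genes in limma, with 1199 at an unadjusted p below 0.05. Without the level filter it called 26, with flow cell as a term 1, and with each mouse left out 0 to 44, the 44 without untreated mouse 2. The 7-day minus 3-day test called 1 gene. It called 0 with a pseudocount of 10, on the upper 50% of genes, with the spread of the 6 KPB25L groups or of the groups compared alone, without treated mouse 4, without untreated mouse 1, and without both mice numbered 1. It called 12 without the filter, 2 with the repeat library alone, and 0 to 6 with mice left out. A pseudocount of 0.1 gave 1, a different gene. The test against KPB25L-UV called 181. It called 394 with a pseudocount of 10, 361 after centring (190 higher, 171 lower), 291 with flow cell, and 0 to 430 with mice left out. Without the 6 KPB25L-UV libraries whose T11 markers averaged above 4.5 log2 signal, it called 1050. The same test called 0 with the spread of the groups compared alone, with muscle level as a covariate, and without both mice numbered 1. The test against T11 called 0, with 4 when unfiltered and 0 to 0 with mice left out. The spread of the 6 KPB25L groups could not be used for the last 2 tests. Of the named genes, the differences of Tbx21 (-0.033) and Cd4 (-0.28) reversed without both mice numbered 1, and those of Acta1 (0.34), Ckm (0.55) and Myh4 (0.77) with muscle level as a covariate, of which they are part. Without untreated mouse 2, Tbx21 was at 3.43 and Cd4 at 1.18 log2. Of the alternative counts of genes without overlap, 15 stayed within 1.5 times the count reported and 15 did not. Of the alternative list medians 864 moved by less than the spread between mice and 16 by more. That spread was the larger of the group SDs of the list mean, 1.94 log2 for the CD8 list. The CD8 median fell from 1.778 to 0.055 log2 without both mice numbered 1, and this still counted as less. The tally therefore cannot show that the list medians are stable. With 4 treated and 3 untreated mice, differences of -7.35 ± 3.14 log2 (Myh1) and 5.73 ± 1.65 log2 (Chil3) were not called. The reason was not tested.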
